A study of Mus musculus with 6 samples.

Results

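Meiotic recombination starts with DNA double-strand breaks that the cell makes in its own chromosomes, and 9 genes of this step were followed here: Spo11, Mei1, Mei4, Rec114, Ccdc36, Ankrd31, Prdm9, Zcwpw1 and Cxxc1. They were taken by gene symbol, whatever their values, from the 54532 genes of the deposited expression table, and each symbol matched a single protein-coding gene. According to the labels, the libraries were made from total RNA of STRA8+ cells of mouse testis, a suspension of germ cells. They are named for the protein that is induced by retinoic acid when germ cells enter meiosis. Marker RNA of spermatids in controls and of Sertoli cells in both groups, given below, departs from that name. There were 3 libraries from conditional knockout animals, with the genotype given only as knockout and written cKO here, and 3 from control animals that carried the Cre recombinase. The labels give no strain, age, Cre driver or deleted gene, do not say whether the libraries of a group came from separate animals, and name retinas in the extraction protocol although every other label names testis. The series title concerns BCAS2, hnRNPH1 and splicing in the repair of double-strand breaks and in synapsis, so the comparison of cKO with control asks how transcripts of the break pathway differed with the deletion.

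In mouse spermatocytes SPO11 cuts DNA in a topoisomerase-like reaction and stays covalently bound to the ends. It does so on chromosome axes, where MEI4, REC114 and IHO1 form foci and ANKRD31 and MEI1 assist. PRDM9 binds DNA through a zinc finger array and methylates histone H3 on lysines 4 and 36, which places the breaks. ZCWPW1 reads these marks, and CXXC1, a subunit of SET1 methyltransferase complexes, binds PRDM9. Transcripts of the pathway are found mainly in preleptotene to zygotene spermatocytes, although Spo11 RNA continues into pachytene, when a longer splice form gives way to a shorter one.

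The level of every gene is given in FPKM, fragments per kilobase of gene and per 1000000 fragments, as the authors deposited it, and was compared by limma on log2(FPKM + 0.5). A gene was called at a Benjamini-Hochberg adjusted p below 0.05 over the 16791 genes whose mean reached 1 FPKM. Fold changes are cKO over control on that log2 scale, which understates the change of low genes. The reads behind the values, recovered from the FPKM, totalled 14770320 to 15204127 per cKO library and 14532453 to 16963019 per control library. The divisor of the deposited FPKM was 1.37 to 1.42 times that total in cKO and 0.691 to 0.774 times in controls, which places cKO levels lower relative to control levels than plain shares of reads do.

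All 9 genes passed the filter and all 9 were called, 7 higher and 2 lower in cKO. Calls were common in these libraries: 86.6% of the genes tested were called, 36.2% higher and 50.4% lower, and the median fold change was -0.41. Mei4 passed the filter through cKO only, since its control mean was below 1 FPKM, so for Mei4 the filter itself required a difference. The groups of libraries did not overlap for any of the 9 genes, nor for 88.0% of all genes tested. The 9 calls and the 9 groups without overlap are therefore near the background, while the 7 higher calls stand beside 36.2% over all genes. The genes are described below by the size and direction of their differences.

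**Figure D1:**
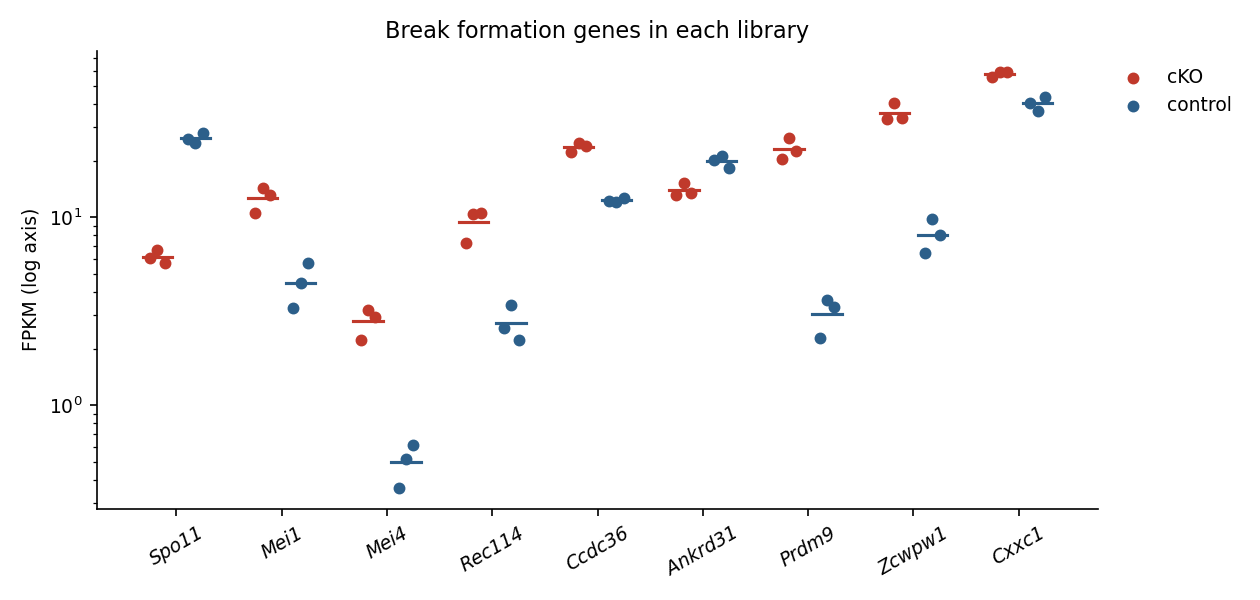
Level of each gene in FPKM (log axis) in the 3 cKO and the 3 control libraries; points are libraries and lines are group means. As deposited, Spo11 and Ankrd31 sit lower in cKO (Ankrd31 turns under other scalings), and the 7 other genes sit higher, with Prdm9 near 23.0 FPKM in cKO and 3.07 FPKM in controls.

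Spo11, the catalytic subunit, had 6.04, 6.66 and 5.70 FPKM in cKO libraries, against 26.2, 24.8 and 28.01 FPKM in control libraries. The groups stood far apart, with every cKO library below every control. The mean was 6.13 ± 0.483 FPKM in cKO and 26.3 ± 1.63 FPKM in controls (SD, n = 3 each), so controls were 4.29 times higher. Its log2 fold change was -2.02 ± 0.10 (SE), with a limma adjusted p of 4.35e-07. These values rested on 1504 reads over the 3 cKO libraries and 3658 over the 3 control libraries. The gene (ENSMUSG00000005883) lies on chromosome 2 at 172977700 to 172993576 in mm10 and has 5 transcripts in GENCODE M21. The table holds a single value per gene, so the short and long Spo11 forms cannot be told apart.

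The other subunit of the break enzyme, TOPOVIBL, is encoded by the gene listed as Gm960 (Top6bl in RefSeq), which is not among the 9. It had 6.29, 7.83 and 6.55 FPKM in cKO libraries, against 2.61, 3.37 and 3.16 FPKM in control libraries. Every cKO library was above every control, the opposite order to Spo11. The log2 fold change was 1.06 ± 0.14 (SE), with a limma adjusted p of 0.000145. In cKO libraries the levels of the 2 subunits were close, with means of 6.89 FPKM for Gm960 and 6.13 FPKM for Spo11, whereas in controls they were 3.05 and 26.3 FPKM.

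MEI4, REC114 and IHO1 form the axis-bound foci at which breaks are made. Mei4, on chromosome 9 at 81863670 to 82206007, had 2.23, 3.20 and 2.95 FPKM in cKO libraries, against 0.363, 0.517 and 0.611 FPKM in control libraries. It was the least abundant of the 9 in both groups, with 199, 267 and 252 reads in cKO libraries and only 15, 28 and 31 reads in control libraries. Its log2 fold change was 1.72 ± 0.19 (SE) with a limma adjusted p of 4.52e-05, while the ratio of mean FPKM was 5.63.

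Rec114, on chromosome 9 at 58652850 to 58743964, had 7.31, 10.4 and 10.5 FPKM in cKO libraries, against 2.57, 3.40 and 2.22 FPKM in control libraries. Replicate 1 was the low cKO library, and it still exceeded the highest control. The log2 fold change was 1.61 ± 0.19 (SE), with a limma adjusted p of 7.43e-05. The exons of Rec114 share 344 bases with those of Nptn on the opposite strand, and the sources used here do not say whether counting used strand. Reads of that stretch cannot be assigned to either gene. Nptn averaged 13.6 FPKM in cKO and 10.1 FPKM in controls.

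Ccdc36, which encodes IHO1, the partner of HORMAD1 on unsynapsed axes, had 22.3, 24.9 and 23.9 FPKM in cKO libraries, against 12.2, 12.1 and 12.7 FPKM in control libraries. Both groups were tight and did not overlap. It rose 1.93 times in mean FPKM, with a log2 fold change of 0.92 ± 0.09 (SE) and a limma adjusted p of 2.17e-05. The gene lies on chromosome 9 at 108403611 to 108428484.

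Mei1, whose loss in mice abolishes most breaks, had 10.5, 14.3 and 13.1 FPKM in cKO libraries, against 3.30, 4.45 and 5.72 FPKM in control libraries. The highest control stayed well below the lowest cKO library. Its log2 fold change was 1.41 ± 0.20 (SE), with a limma adjusted p of 0.000218, and it lies on chromosome 15 at 82069996 to 82126814.

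Ankrd31, a REC114-binding scaffold that is also needed for breaks in the pseudoautosomal region, was the other gene called lower as deposited, and was called higher under 3 other scalings given below. It had 13.1, 15.1 and 13.4 FPKM in cKO libraries, against 20.1, 21.1 and 18.3 FPKM in control libraries. The groups did not overlap, but the difference was small, with a log2 fold change of -0.50 ± 0.10 (SE) and a limma adjusted p of 0.00184. This placed Ankrd31 at the middle of all genes, at percentile 48.5 of the fold changes, 0.09 below their median. It lies on chromosome 13 at 96748272 to 96910039.

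Among the genes that place the breaks, Prdm9 had the largest rise of the 9. It had 20.3, 26.4 and 22.4 FPKM in cKO libraries, against 2.27, 3.60 and 3.33 FPKM in control libraries. The lowest cKO library was several times above the highest control. The mean was 23.0 ± 3.09 FPKM in cKO and 3.07 ± 0.708 FPKM in controls (SD, n = 3 each), a ratio of 7.50, on 6191 reads over the cKO libraries and 479 over the control libraries. The log2 fold change was 2.73 ± 0.17 (SE), with a limma adjusted p of 1.96e-06, at percentile 99.6 of all genes tested. The gene lies on the minus strand of chromosome 17 at 15543079 to 15564354.

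Upstream sequence is shown for Prdm9 and Mei4, which rose, and for Ankrd31, which was lower as deposited, because a RefSeq start site of each lay within 50 bases of the start in the deposited table and the window held at most 30 bases of annotated exon. Of the 9 genes, 7 had a window in the RefSeq table (GRCm38.p6, the same assembly as mm10). Each line is the 250 bases before the start site, 5′ to 3′ on the strand of the gene. Capitals mark matches to CNCCTCAG, which STRA8 and MEIOSIN are known to bind, to AACNGNC, a MYB motif, or to GGCGGGAA, an E2F motif, on either strand. The windows are chr17:15564355-15564604 on the minus strand for Prdm9, chr9:81863420-81863669 on the plus strand for Mei4, and chr13:96748043-96748292 on the plus strand for Ankrd31.
Prdm9: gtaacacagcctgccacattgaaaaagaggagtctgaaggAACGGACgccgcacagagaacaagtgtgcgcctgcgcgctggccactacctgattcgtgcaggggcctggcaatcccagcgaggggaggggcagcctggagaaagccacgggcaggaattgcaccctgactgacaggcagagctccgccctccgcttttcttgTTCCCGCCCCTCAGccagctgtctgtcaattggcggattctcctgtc
Mei4: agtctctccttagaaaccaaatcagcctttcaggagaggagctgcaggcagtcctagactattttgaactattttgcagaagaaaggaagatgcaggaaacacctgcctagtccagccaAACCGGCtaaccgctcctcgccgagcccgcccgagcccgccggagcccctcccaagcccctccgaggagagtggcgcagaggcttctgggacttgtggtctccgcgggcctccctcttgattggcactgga
Ankrd31: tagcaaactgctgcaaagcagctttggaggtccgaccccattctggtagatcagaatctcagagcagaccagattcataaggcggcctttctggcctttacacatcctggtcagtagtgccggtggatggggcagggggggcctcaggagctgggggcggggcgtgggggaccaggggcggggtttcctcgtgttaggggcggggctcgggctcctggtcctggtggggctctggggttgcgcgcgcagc
The Prdm9 window held all 3 motifs. The STRA8 motif began 41 bases before the start and overlapped by 2 bases the reverse complement of the E2F motif, which began 47 bases before it, and the MYB motif began 210 bases before it. The Mei4 window held a MYB motif 131 bases before the start, and the Ankrd31 window held none of the 3. None was found either in the windows of Mei1, Rec114, Ccdc36 and Zcwpw1, which rose, or in the second Prdm9 window, none of which is printed. The start sites of the Mei1, Rec114, Ccdc36 and second Prdm9 windows lay 12480, 2405, 3342 and 1023 bases from the deposited start. Those windows therefore do not describe the sequence just before it. Zcwpw1 had a window 467 bases away and another with 104 bases of Mepce exon. Of all 32851 RefSeq windows, 6.42% held the STRA8 motif, 27.7% the MYB motif and 1.86% the E2F motif. No factor's binding was measured, so a match is a description of the letters only.

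Zcwpw1, the reader of the paired histone marks, had 33.4, 40.3 and 33.8 FPKM in cKO libraries, against 6.42, 9.74 and 8.01 FPKM in control libraries. The log2 fold change was 2.10 ± 0.16 (SE), with a limma adjusted p of 4.96e-06, at percentile 96.4. Prdm9 and Zcwpw1 shared their order over libraries, with replicate 1 lowest and replicate 2 highest in each group. Zcwpw1 lies on chromosome 5 at 137787798 to 137822621. Its exons share 468 bases with Pilra on the opposite strand, which averaged 0.288 FPKM in cKO and 0.290 FPKM in controls.

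Cxxc1, which is expressed in most tissues, had 55.6, 59.1 and 59.5 FPKM in cKO libraries, against 40.6, 36.6 and 43.6 FPKM in control libraries. The groups did not overlap although the gap was modest beside those of Prdm9 and Zcwpw1. Its log2 fold change was 0.53 ± 0.09 (SE), with a limma adjusted p of 0.000856, and its mean FPKM was 1.44 times higher in cKO. It lies on chromosome 18 at 74216131 to 74221491.

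Because the deposited scaling divides cKO and control libraries differently, the fold changes were also taken under 3 other scalings. FPKM rescaled to sum to 1000000 moved the median of all genes by 1.12 and called 9109 genes higher (54.2%) and 6084 lower (36.2%), against 6075 and 8462 as deposited. Reads rescaled to 1000000 moved the median by 0.83 and called 8491 genes higher (50.6%) and 6527 lower (38.9%). Quantile normalization moved it by 0.94 and called 8745 genes higher (52.1%) and 6187 lower (36.8%). Spo11 kept its call lower in each, with log2 fold changes of -0.90, -1.14 and -1.26 and limma adjusted p of 8.36e-05, 1.58e-05 and 7.13e-06. The 7 genes called higher kept that call in each. Prdm9 reached 4.01, 3.57 and 3.79, and Cxxc1 reached 1.71, 1.44 and 1.90. Ankrd31 turned to a call higher in each, at 0.67, 0.39 and 0.33, with limma adjusted p of 0.000531, 0.00675 and 0.0121. Relative to the median of all genes as deposited, Spo11 stood at -1.60, Ankrd31 at -0.09, Cxxc1 at 0.94, Ccdc36 at 1.33, Mei1 at 1.83, Rec114 at 2.03, Mei4 at 2.13, Zcwpw1 at 2.51 and Prdm9 at 3.15.

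**Figure D2:**
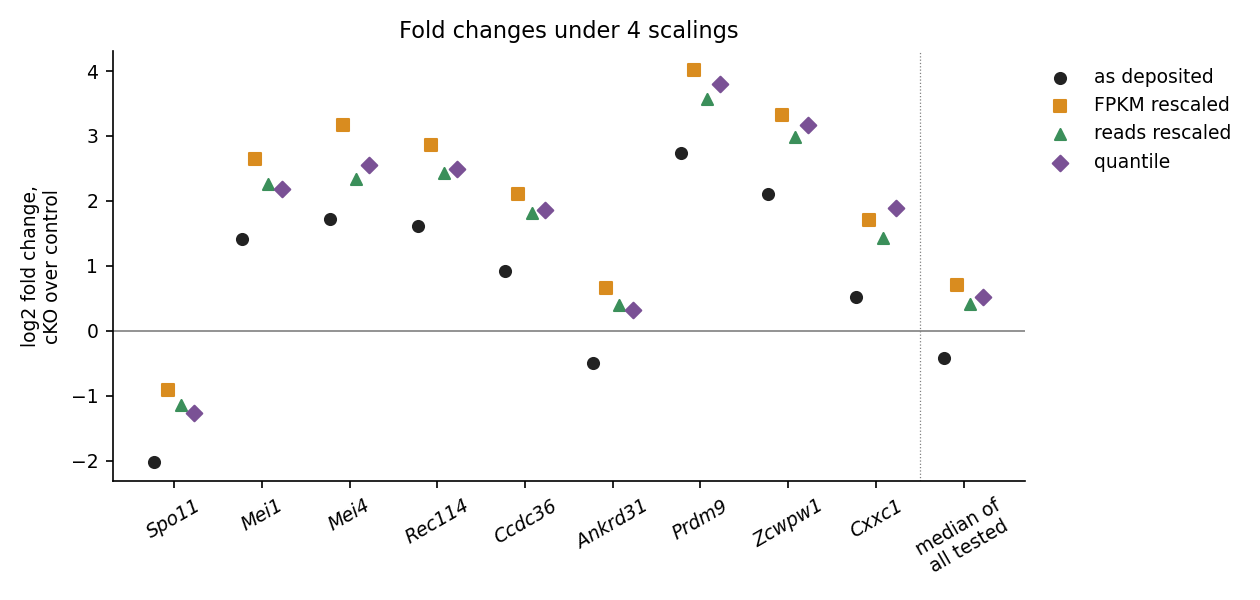
Log2 fold change, cKO over control, of each of the 9 genes and of the median of all genes tested under 4 scalings (marker shapes). Spo11 is below 0 in each, from -2.02 to -0.90, Ankrd31 is below 0 only as deposited, and the other 7 genes are above 0 in each.

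A ratio of 2 genes in the same library does not depend on how the library was scaled, so each gene was also set against Spo11. Cxxc1 alone exceeded Spo11 in control libraries, while in cKO libraries every gene but Mei4 did. Prdm9 had 3.36, 3.96 and 3.93 times the FPKM of Spo11 in cKO libraries, against 0.0866, 0.146 and 0.119 times in control libraries. This was the widest shift of the 8, a 32.7-fold change of the ratio. Mei4 had 0.369, 0.481 and 0.518 times the FPKM of Spo11 in cKO libraries, against 0.0139, 0.0209 and 0.0218 times in control libraries, a 24.4-fold change. Zcwpw1 shifted 19.3-fold, Rec114 14.8-fold, Mei1 12.3-fold, Ccdc36 8.26-fold and Cxxc1 6.20-fold. Ankrd31 shifted least, with 2.17, 2.27 and 2.35 times the FPKM of Spo11 in cKO libraries, against 0.768, 0.854 and 0.653 times in control libraries, a 3.002-fold change.

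For each of the 8 ratios the groups did not overlap, and an exact two-sided permutation test gave p = 0.1, the smallest that 3 libraries against 3 allow; adjusted over the 8 ratios it stayed 0.1. The ratio to Spo11 also did not overlap between groups for 92.3% of the 14188 other genes with reads in every library. Their median log2 change of that ratio was 2.08, a value that carries the low level of Spo11 in cKO. Read against it, Ankrd31 at 1.59 was at percentile 41.6 of these genes, Cxxc1 at 2.63 was at 60.5, Ccdc36 at 3.05 was at 69.0, Mei1 at 3.62 was at 80.6 and Rec114 at 3.89 was at 85.8. Zcwpw1 at 4.27, Mei4 at 4.61 and Prdm9 at 5.03 were at percentiles 92.3, 96.3 and 99.0.

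**Figure D3:**
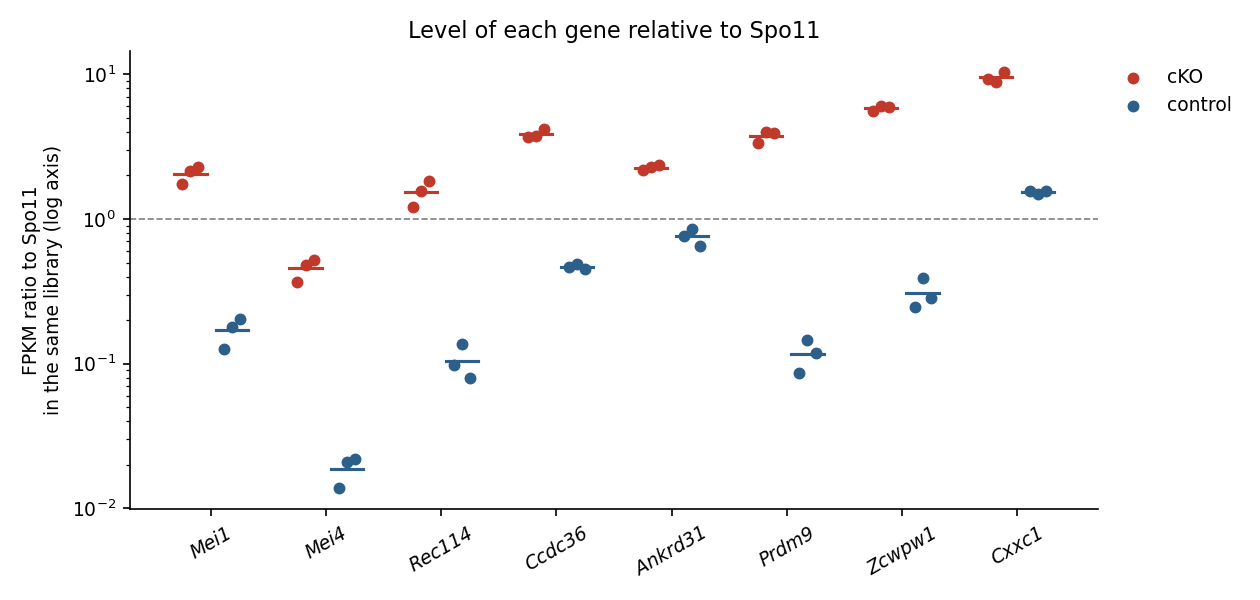
FPKM of each gene divided by that of Spo11 in the same library (log axis), in the 3 cKO and the 3 control libraries; points are libraries, lines are group means, and the dashed line marks a ratio of 1. The cKO libraries are above the control libraries for all 8 genes, from a 3.002-fold shift for Ankrd31 to 32.7-fold for Prdm9.

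Among the 36 pairs of the 9 genes, the ratio did not overlap between groups in 33, and it did not for 83.7% of all pairs of genes with reads in every library. The 3 pairs whose groups overlapped were Mei1 with Rec114, Mei4 with Zcwpw1 and Rec114 with Zcwpw1. Mei1 had 1.43, 1.37 and 1.25 times the FPKM of Rec114 in cKO libraries, against 1.28, 1.31 and 2.57 times in control libraries. Control replicate 3, where Rec114 was lowest and Mei1 highest, lay above every cKO library. The other control libraries lay within the cKO range and made the overlap. Mei4 had 0.0668, 0.0794 and 0.0874 times the FPKM of Zcwpw1 in cKO libraries, against 0.0565, 0.0531 and 0.0763 times in control libraries.

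The order of levels per length differed between the groups. In cKO, Cxxc1 at 58.1 ± 2.11 FPKM led, followed by Zcwpw1 at 35.8 ± 3.89, Ccdc36 at 23.7 ± 1.34, Prdm9 at 23.0 ± 3.09, Ankrd31 at 13.9 ± 1.09, Mei1 at 12.6 ± 1.96, Rec114 at 9.40 ± 1.81, Spo11 at 6.13 ± 0.483 and Mei4 at 2.80 ± 0.504 FPKM (SD, n = 3). In this order the values of the neighbours Ccdc36 and Prdm9, Ankrd31 and Mei1, and Mei1 and Rec114 overlapped. In controls, Cxxc1 at 40.3 ± 3.53 FPKM led, followed by Spo11 at 26.3 ± 1.63, Ankrd31 at 19.8 ± 1.45, Ccdc36 at 12.3 ± 0.323, Zcwpw1 at 8.05 ± 1.66, Mei1 at 4.49 ± 1.21, Prdm9 at 3.07 ± 0.708, Rec114 at 2.73 ± 0.602 and Mei4 at 0.497 ± 0.125 FPKM (SD, n = 3). Here the neighbours Mei1 and Prdm9, and Prdm9 and Rec114, overlapped. Spo11 was therefore second of the 9 in controls and eighth in cKO.

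As shares of the summed FPKM of the 9 genes, Spo11 made up 3.54%, 3.32% and 3.08% in cKO libraries, against 23.0%, 21.3% and 22.9% in control libraries. Prdm9 made up 11.9%, 13.2% and 12.1% in cKO libraries, against 1.99%, 3.10% and 2.72% in control libraries. Zcwpw1 made up 19.6%, 20.1% and 18.2% in cKO libraries, against 5.63%, 8.38% and 6.54% in control libraries. Cxxc1 had similar shares, at 32.6%, 29.5% and 32.1% in cKO libraries and 35.6%, 31.5% and 35.6% in control libraries, and its ranges overlapped. Mei1 made up 6.13%, 7.13% and 7.08% in cKO libraries, against 2.90%, 3.83% and 4.67% in control libraries. The shares of Prdm9, Zcwpw1 and Mei1 varied among the control libraries. Shares do not depend on the scaling of a library.

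**Figure D4:**
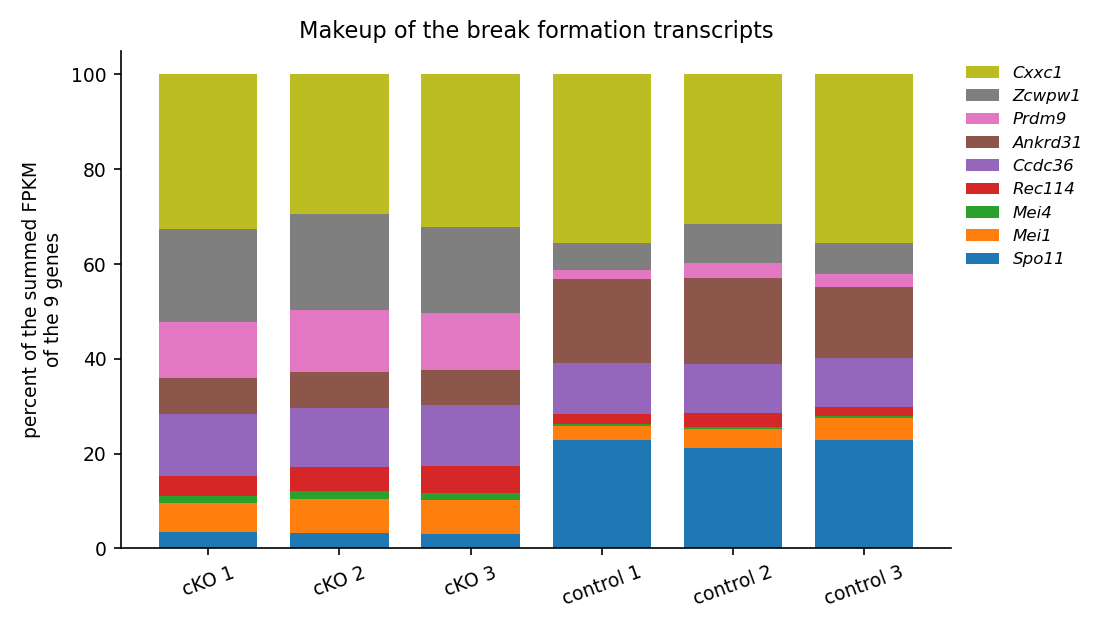
Share of each gene in the summed FPKM of the 9 genes, in percent, in each of the 3 cKO and 3 control libraries. The Spo11 segment spans 3.08% to 3.54% in cKO and 21.3% to 23.0% in controls, and the segments of Prdm9 and Zcwpw1 are wider in every cKO library than in any control.

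Replicate 1 was the lowest cKO library for 8 of the 9 genes, all but Spo11, and replicate 2 was the highest for 7. How often this held over all genes was not counted. The summed FPKM of all genes was also highest in cKO replicate 2, at 211002, against 205178 and 204688 in cKO replicates 1 and 3. Among controls no library was lowest for most genes: replicates 1, 2 and 3 were lowest for 4, 3 and 2 genes and highest for 0, 4 and 5. The spread was wider in controls for the genes that were low there: the coefficient of variation was 27.0% for Mei1, 25.2% for Mei4, 23.1% for Prdm9 and 22.0% for Rec114, compared with 6.21% for Spo11 and 2.62% for Ccdc36.

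Marker lists of other stages and cell types were also compared. Their counts are calls as deposited, beside 36.2% higher and 50.4% lower over all genes. These counts were not repeated under the other scalings. Spermatid markers were lower in 12 of 12, with a summed level of 4.82 to 8.66 FPKM in cKO and 18242 to 21228 FPKM in controls, and pachytene and diplotene markers were lower in 12 of 12, with 51.6 to 73.9 FPKM in cKO and 5847 to 7092 FPKM in controls. Of these, 11 spermatid and 8 pachytene and diplotene markers passed the filter through the controls only, so the filter required a difference and the counts are a description. Markers of undifferentiated spermatogonia, 4 higher and 2 lower of 7 tested, summed to 240.7 to 308.7 FPKM in cKO and 49.7 to 68.04 FPKM in controls. Of these 7, 1 passed the filter through the controls only, so for it a difference was required. Markers of differentiating spermatogonia, 7 higher and 1 lower of 8, summed to 520.4 to 554.5 FPKM in cKO and 435.8 to 528.1 FPKM in controls. Sertoli markers were higher in 10 of 10, of which Amh and Fshr passed the filter through cKO only, with 504.3 to 917.9 FPKM in cKO and 132.4 to 274.9 FPKM in controls. Of 5 Leydig markers tested 1 rose and 3 fell, with 14.98 to 66.7 FPKM in cKO and 86.2 to 141.9 FPKM in controls. None of 4 peritubular myoid markers (0) was called, with 21.2 to 38.2 FPKM in cKO and 13.8 to 31.7 FPKM in controls, and 3 of 6 macrophage markers rose, with 72.4 to 233.4 FPKM in cKO and 44.4 to 78.99 FPKM in controls. No photoreceptor marker (0 of 8) passed the filter, with a sum of 0.631 to 0.913 FPKM in cKO and 1.90 to 2.05 FPKM in controls. Crx and Opn1sw were at 0 in every library and Nanos2 in every control library. The marker sums depart from the label of STRA8+ germ cells. In controls spermatid markers summed to far more than Stra8, at 11.5 to 22.6 FPKM, and Sertoli markers were found in both groups. The purity of the cells was not tested. In bulk RNA, a change in the number of cells of a type and in RNA per cell cannot be told apart, and the part of these markers in the levels of the 9 genes was not tested.

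Of 12 further genes of the break machinery and its first responders, 9 rose, 1 fell and 2 were not called, with a median log2 fold change of 0.99, beside 36.2% higher, 50.4% lower and a median of -0.41 over all genes. Atm, the kinase that limits further breaks near a break, had 17.9, 20.9 and 21.8 FPKM in cKO libraries, against 2.89, 4.62 and 4.004 FPKM in control libraries, with a log2 fold change of 2.27 ± 0.17 (SE) and a limma adjusted p of 4.64e-06. Dmc1, the meiotic recombinase loaded on the resected ends, averaged 49.5 ± 3.20 FPKM in cKO and 10.4 ± 2.71 FPKM in controls (SD, n = 3 each). Exo1, a nuclease of end resection, Trip13, the ATPase that removes HORMA proteins, and Chek2, the kinase of the break checkpoint, had log2 fold changes of 1.77, 1.73 and 1.71. Chek2 averaged 4.195 FPKM in cKO and 0.947 FPKM in controls and passed the filter through cKO only, so for it a difference was required. Hormad1, which recruits IHO1 to axes, had 96.2, 177.0 and 124.4 FPKM in cKO libraries, against 116.7, 116.8 and 97.7 FPKM in control libraries. Its groups overlapped, and its limma adjusted p was 0.336.

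In the MRE11 complex, which releases SPO11 from the ends, Rad50 rose with a log2 fold change of 0.92, Nbn fell with -0.45, and Mre11a, at -0.22 with a limma adjusted p of 0.0557, was not called. Hormad2 rose with 0.50, and Gm960, given above, is also among these 12 genes and rose. Rbbp8, the CtIP gene, was called higher at 0.30 with a limma adjusted p of 0.0408, and this call was lost under 7 of 16 alternatives (adjusted p up to 0.127): no filter, no trend, the replicate block, and leaving out cKO replicate 2 or 3 or control replicate 2 or 3. Under each of the 3 other scalings all 12 genes were called higher, and none lower (0). Of all genes, 54.2% were called higher with FPKM rescaled, 50.6% with reads rescaled and 52.1% under quantile normalization.

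Of 7 genes listed with PRDM9 and hotspots, here called hotspot partners, 3 were called higher and 4 lower. Their median log2 fold change was -0.52. These values are near the 36.2% higher, 50.4% lower and median of -0.41 of all genes. Hells, a chromatin remodeler that opens PRDM9 sites, had 53.1, 66.7 and 65.1 FPKM in cKO libraries, against 12.2, 16.1 and 12.7 FPKM in control libraries, with a log2 fold change of 2.13 ± 0.14 (SE) and a limma adjusted p of 2.07e-06. The histone methyltransferase gene Ehmt1 rose with 2.44, while as deposited its partner Ehmt2 fell with -0.52. Ewsr1, which encodes an RNA-binding protein that binds PRDM9, fell with -0.55 and Cdyl, a chromodomain gene, with -2.26. Zcwpw2, a paralog of Zcwpw1, was called higher at 0.42 with a limma adjusted p of 0.046, and this call was lost under 7 of 15 alternatives (adjusted p up to 0.167), among them leaving out cKO replicate 1 or 3 or control replicate 1 or 2.

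Morc2b, which encodes a MORC ATPase needed for meiotic prophase, had 0.575, 1.12 and 0.719 FPKM in cKO libraries, against 126.3, 101.9 and 117.9 FPKM in control libraries. It was the largest fall among the 41 partner genes, with a log2 fold change of -6.49 ± 0.17 (SE) and a limma adjusted p of 9.42e-09. Its cKO mean of 0.806 FPKM was below 1 FPKM, so it passed the filter through the controls only, which required a difference. Under each of the 3 other scalings 5 of the 7 hotspot partners were called higher and 2 lower, since Ewsr1 and Ehmt2 turned to a call higher. Those scalings called 54.2%, 50.6% and 52.1% of all genes higher and 36.2%, 38.9% and 36.8% lower. Cdyl and Morc2b stayed lower in each.

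CXXC1 works in SET1 complexes, which methylate histone H3 on lysine 4 at promoters. Of 8 genes of these complexes, 5 rose and 3 fell, with a median log2 fold change of 1.32, beside 36.2% higher and 50.4% lower over all genes. The alternative catalytic subunits differed in opposite directions: Setd1a averaged 14.7 ± 0.764 FPKM in cKO and 3.93 ± 0.741 FPKM in controls, and Setd1b averaged 1.09 ± 0.281 FPKM in cKO and 5.77 ± 0.728 FPKM in controls (SD, n = 3 each). Hcfc1, Wdr5, Rbbp5 and Wdr82 rose with log2 fold changes of 2.29, 1.33, 1.33 and 1.31. Dpy30 and Ash2l, core subunits shared with other lysine 4 methyltransferases, fell with -2.53 and -1.21. The fall of Ash2l was not called with FPKM rescaled, at -0.05 with a limma adjusted p of 0.586, and the other directions of this list held under the 3 other scalings.

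Breaks are made on the chromosome axis, and of its 6 genes 2 were called higher and 4 lower, with a median of -0.44. These shares and this median are near those of all genes, at 36.2% higher, 50.4% lower and -0.41. Rad21l, a meiotic cohesin kleisin, had 38.9, 51.4 and 40.0 FPKM in cKO libraries, against 4.02, 8.72 and 5.14 FPKM in control libraries, with a log2 fold change of 2.82 ± 0.25 (SE) and a limma adjusted p of 1.47e-05. Rec8, the other meiotic kleisin, had 10.9, 12.0 and 12.2 FPKM in cKO libraries, against 44.6, 36.8 and 35.1 FPKM in control libraries, the opposite order, with -1.68 ± 0.11 (SE) and a limma adjusted p of 2.84e-06. Sycp3 was called higher at 0.34, and Stag3, Smc1b and Sycp2 were called lower as deposited, at -1.03, -0.30 and -0.58. The call of Sycp3 was lost with no filter and without cKO replicate 2, control replicate 1 or control replicate 3 (limma adjusted p up to 0.0722). That of Smc1b was lost with the replicate block and without cKO replicate 1, cKO replicate 3 or control replicate 1 (limma adjusted p up to 0.0854). Smc1b and Sycp2 turned to a call higher under each of the 3 other scalings. Stag3 was called higher under quantile normalization, at 0.59, and was not called under the other two.

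Among 8 genes of meiotic entry, 7 rose, beside 36.2% of all genes, and 1, Meioc, was not called, with a median of 2.41. Stra8 had 125.4, 136.8 and 136.2 FPKM in cKO libraries, against 11.5, 22.6 and 17.0 FPKM in control libraries, and Gm4969, known as Meiosin, had 61.3, 70.5 and 53.2 FPKM in cKO libraries, against 5.71, 10.3 and 7.24 FPKM in control libraries. Their log2 fold changes of 2.98 and 2.94 were near the 2.73 of Prdm9. Sohlh1, Rhox13, Kit and Sohlh2, genes of differentiating spermatogonia, rose with 2.65, 2.58, 2.25 and 2.05, and Ythdc2, an RNA helicase that works with MEIOC, rose with 1.06. Stra8, Sohlh1, Rhox13, Kit and Sohlh2 are also in the marker list of differentiating spermatogonia, so the counts of these lists are not independent. Meioc was at -0.26 with a limma adjusted p of 0.124, and it was called higher under each of the 3 other scalings.

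**Figure D5:**
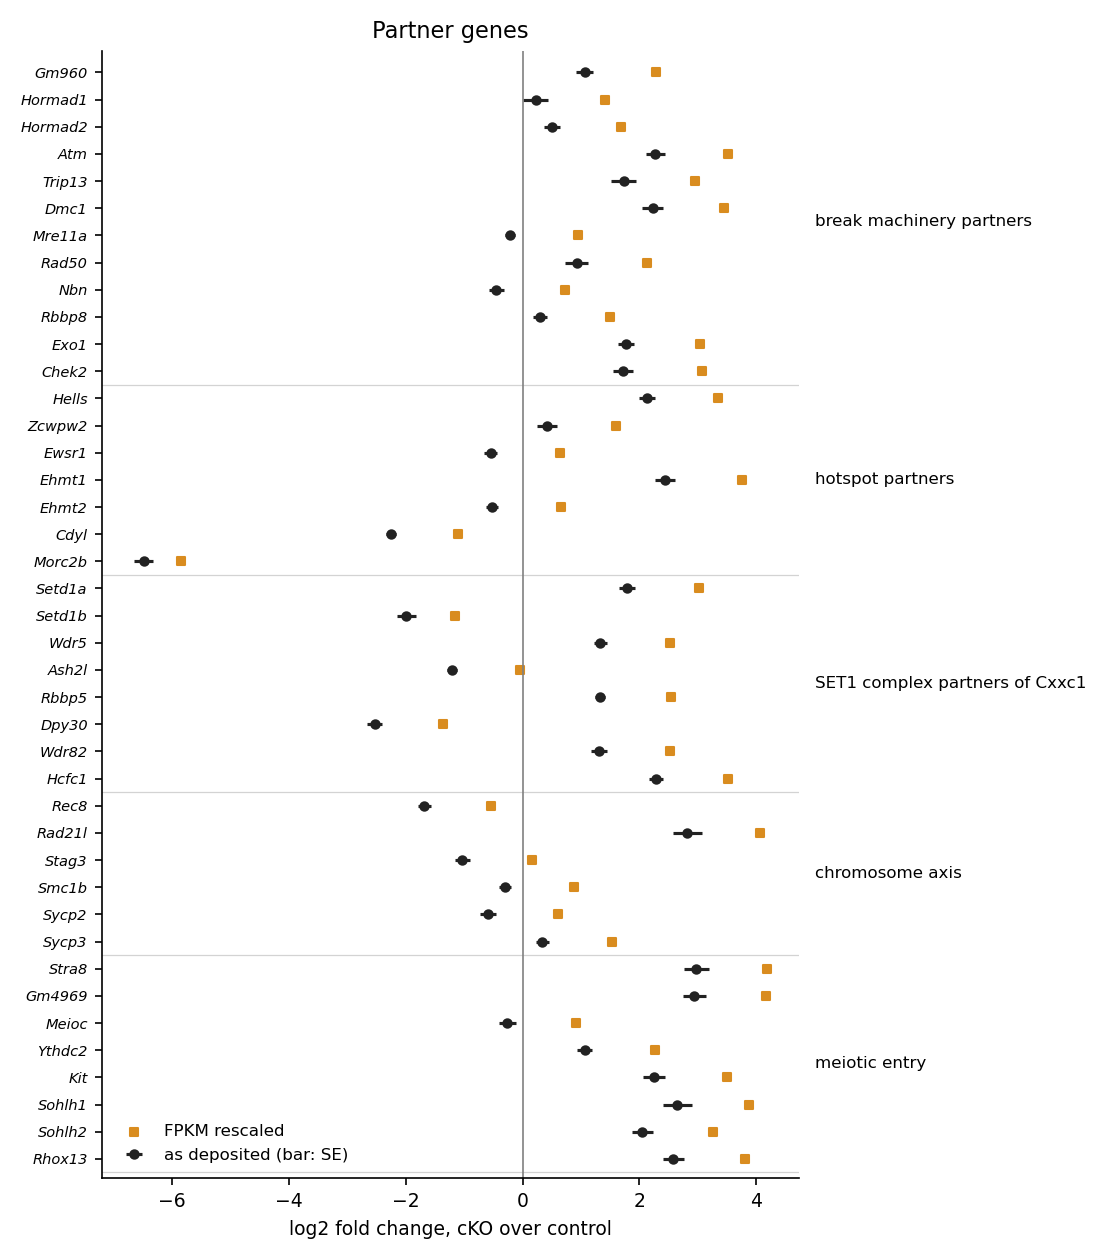
Log2 fold change, cKO over control, of the 41 partner genes in 5 lists, as deposited (circles, with the SE as a bar) and with FPKM rescaled to sum to 1000000 (squares). Meiotic entry genes lie mostly to the right, Morc2b, tested through controls only, lies farthest to the left at -6.49, and hotspot, SET1 complex and axis genes lie on both sides of 0.

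The protein-coding genes whose profiles were nearest to those of Spo11 and Prdm9 were sought among 11943 candidates by the root mean square difference of log2(FPKM + 0.5), centred on each gene's mean over the 6 libraries. Nearest to Spo11 were Socs7 at 0.0395, Klhl3 at 0.0402 and Sufu at 0.0439. Socs7 averaged 13.4 FPKM in cKO and 56.6 FPKM in controls, and Sufu averaged 4.87 and 22.2 FPKM. Klhl3 averaged only 0.179 FPKM in cKO and 2.36 FPKM in controls. It passed the filter through the controls only, and the added 0.5 understates its change. Nearest to Prdm9 were Ddb2 at 0.0765, Rbmx2 at 0.0964 and Tex13b at 0.0993, and Ddb2 averaged 29.5 FPKM in cKO and 4.30 FPKM in controls. With 6 libraries in 2 groups, this likeness reflects mostly a similar difference between the groups.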

How the data were processed

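Total RNA from testis cells labelled STRA8+ was sequenced in 3 cKO and 3 control libraries, grouped by their titles. Alignment used HISAT2 2.0.5 and the mm10 build, according to the submitters' processing notes. The counter, annotation release and use of strand are not stated there. The authors deposited FPKM for 54532 genes. FPKM times gene length gave whole multiples of 1 read, within 0.01 read, for 100% of the nonzero values, which recovered the reads; they carry no molecular identifiers. Of the identifiers, 54409 are in GENCODE M21 and 53499 have the same coordinates there.

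Genes whose mean reached 1 FPKM were tested with limma 3.58.1 (R 4.3.3) on log2(FPKM + 0.5), with a mean-variance trend, two-sided, and Benjamini-Hochberg adjustment over the 16791 genes tested. Standard errors are moderated. The labels do not tie libraries to animals, so p-values may reflect technical spread only. Python 3.11.15, numpy 2.4.6, pandas 2.3.3, scipy 1.17.1 and matplotlib 3.10.9 were used for ratios, motifs and figures.

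The 9 genes, the 5 partner lists, the 9 marker lists and the rule for nearest profiles were chosen with earlier results of these data known. All members and any partner gene could be named. Of markers only counts and sums are given, except those at 0, Amh and Fshr, named for the filter, and those that are also partner genes.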

Additional observations from a re-analysis of the deposited data

How the results depend on the processing

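Under 16 alternatives (pseudocounts of 0.1 and 1, no filter, a filter at 5 FPKM, 3 other scalings, limma voom on reads, no trend, a replicate block and leaving out each library) the 9 genes gave 143 values, of which 140 kept direction and call; Mei4 gave none at the filter of 5 FPKM. The 3 that reversed were Ankrd31, at 0.67 with FPKM rescaled, 0.39 with reads rescaled and 0.33 under quantile normalization, so that 1 of the 9 genes, Spo11, was called lower in each. Over all alternatives the log2 fold change ranged from -2.10 to -0.90 for Spo11 and from 2.56 to 4.01 for Prdm9. In the same 3 scalings the machinery partners had 0 called lower, the hotspot partners 5 higher and 2 lower, and the axis genes 4, 4 and 5 higher and 1 lower. Over all genes these scalings called 54.2%, 50.6% and 52.1% higher and 36.2%, 38.9% and 36.8% lower. They divide libraries differently by construction. Without a filter 1 axis gene was called higher, since Sycp3 lost its call. Its log2 fold change stayed at 0.34, while its limma adjusted p went from 0.0237 to 0.0516 with 37309 genes tested. The filter at 5 FPKM called 3227 genes higher and 5320 lower among only 9583 genes. On log2(FPKM + 0.5) the log2 changes of the ratios of Mei4, Ccdc36 and Cxxc1 to Spo11 were 3.74, 2.93 and 2.54, against 4.61, 3.05 and 2.63 without the added 0.5.

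Leaving out libraries gave 1 to 2 axis genes called higher, with 1 without cKO replicate 2, control replicate 1 or control replicate 3, and 0 to 1 meiotic entry genes called lower, with 1 without cKO replicate 2. It put 0 to 2 of the 9 genes at another rank in controls, where Prdm9 and Rec114 changed places without control replicate 3. It left 7 genes called higher and 2 lower of the 9 throughout. Among partner genes the calls of Rbbp8, Zcwpw2, Smc1b and Sycp3, whose adjusted p was near the threshold, were each lost under 4 to 7 alternatives. Same-numbered libraries of the groups did not deviate together, with correlations of -0.12, -0.05 and -0.04 across genes. Libraries of different numbers gave -0.055 to 0.095. With deviations taken from means of 3 libraries, these values cannot exclude that the numbers pair them. With the replicate block the calls were 7 higher and 2 lower of the 9 genes, 8 of the machinery partners were higher and 3 of the axis genes lower. Mei4 rests on 74 control reads and Rec114 on 125, which limits the precision of their folds.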
